A study of Equus caballus with 40 samples.

Results

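Interferon response genes are the genes that cells switch on when interferons, the signalling proteins of antiviral defence, bind their receptors. The members were taken from a list of 40 symbols, which name 39 genes because DDX58 is the older symbol of RIGI. A gene was measured where the platform annotation gave its symbol alone to a probe set, and the probe set with the highest mean stood for the gene. This gave 35 members of 16661 named genes on the array, each with 1 probe set. IFIT2, GBP1 and GBP2 had no probe set with their symbol, and IFIT5 shared its probe set with a further gene, so these 4 genes are not analysed here.

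Expression was measured on 40 Affymetrix whole-transcript arrays of equine chondrocytes, the cells of cartilage, grown as 3D pellets. The 5 treatments were an unstimulated control without cytokine, interleukin-1β (IL-1β) alone, and IL-1β together with autologous equine serum (AES), with a treatment labelled AES24h or with autologous conditioned serum (ACS). Stimulated pellets had 5 ng/ml recombinant equine IL-1β for 48 h before treatment began, and pellets were taken 2 h and 48 h afterwards, which gave 10 groups of 4 arrays. The labels give neither the meaning of AES24h, nor the serum doses, nor the horses, ages or breeds behind a pellet, and 1 pellet stood for 1 sample. Every serum group also carried IL-1β, so serum was never tested on unstimulated pellets. Whether the 4 replicates of a group are separate cultures or animals is not said, and the p-values reflect the spread among these samples alone, which could be technical.

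As background, type I interferons signal through the receptor chains IFNAR1 and IFNAR2 and the kinases JAK1 and TYK2, and a complex that holds STAT2 and IRF9 then binds the promoters of genes such as MX1, OAS1 and ISG15. Interferon gamma uses other receptor chains and raises IRF1, the guanylate binding proteins, CXCL9, CXCL10 and the antigen processing genes. IL-1β signals by a different route, through MYD88, NF-kB and MAP kinases, and some genes, IRF1 among them, answer to both routes.

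Values are log2 expression, so a difference of 1 is a 2-fold change. The array medians lay between 4.35 and 4.59. Of the 35 members 18 had a mean below every array median in all 10 groups, which is 51.4% against 32.8% of the named genes and 43.3% of all 30559 probe sets, and 11 were below that line in no group. Such low means may be background signal, where a fall could not be seen and a fold change has no exact size. Within a group, pairs of arrays had correlations from 0.962 to 0.984. Of 10 chondrocyte markers 9 lay above the lowest array median in all groups, COL2A1, ACAN and COMP among them, and MATN3 lay below it in all 10. Of 18 measured leukocyte markers 14 lay below every array median in all groups, PTPRC (CD45, the common leukocyte antigen), CD3E and CD163 among them. The others were CD68 (group means 4.95 to 5.91), NKG7 (4.49 to 4.81) and CORO1A (4.52 to 4.75), below that line in no group, and CD79A, below it in 6. The mean over the leukocyte list ran from 3.31 to 3.35 in control and from 3.28 to 3.61 with IL-1β at 2 h, and from 3.24 to 3.43 and 3.28 to 3.57 at 48 h. Limma called 0 of the 18 for IL-1β at either time, with 1 at an unadjusted p under 0.05 at 2 h and 0 at 48 h. The chondrocyte markers did move with the groups: limma called 4 of 10 lower with IL-1β at 2 h and 7 of 10 at 48 h, with 0 higher. Their mean ran from 9.07 to 9.46 in control and from 7.90 to 8.28 with IL-1β at 2 h, and from 8.62 to 9.81 and 7.67 to 8.18 at 48 h. Of 5 measured fibroblast markers only PDPN lay below every array median in all 10 groups. The collagen genes COL1A1 (group means 10.4 to 11.3) and COL3A1 (12.4 to 12.8) were below that line in no group. The same held for DCN (12.4 to 12.9) and THY1 (4.54 to 5.65). Limma called 0 of the 5 for IL-1β at 2 h (2 at an unadjusted p under 0.05) and 1, COL3A1, higher by 0.40 at 48 h (adjusted p = 0.0413). All 5 measured endothelial markers lay below every array median in all groups, and limma called 0 of them in any comparison with control, with 1 at an unadjusted p under 0.05 for IL-1β at 48 h. Fewer chondrocytes and less of these RNAs per chondrocyte cannot be told apart in bulk pellets, and the part of this shift in the member results was not tested.

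**Figure D1:**
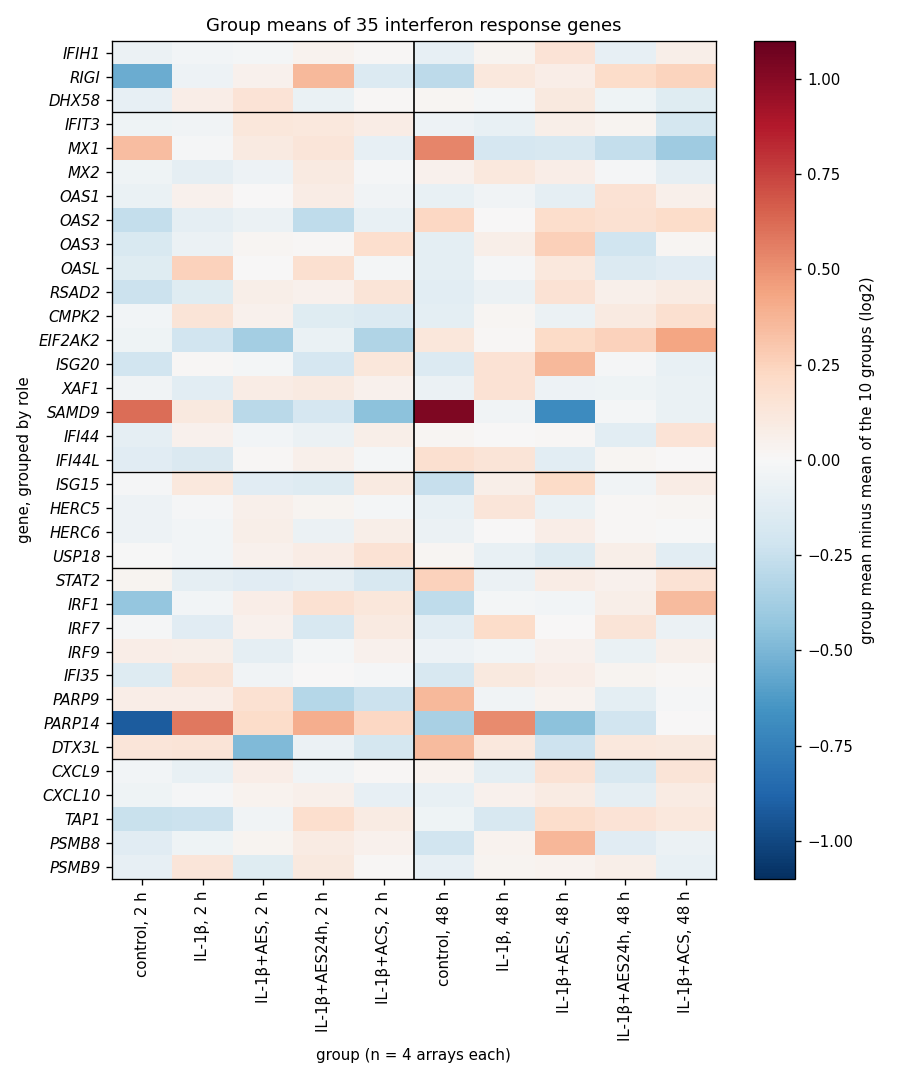
Heat map of the 35 members (rows, grouped by role) in the 10 groups (columns), coloured by the group mean minus the gene's mean over the 10 groups on the log2 scale. Most rows are pale, and the strongest colours are SAMD9 in control at 48 h (1.03) and PARP14 in control at 2 h (−0.92).

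The group means of a member spanned a median of 0.37 from the lowest to the highest group, against 0.46 over the named genes and 0.51 over all probe sets. Only 2 members, SAMD9 at 1.72 and PARP14 at 1.50, had group means more than 1 apart, which is 5.71% against 9.66% of the named genes and 12% of all probe sets. MX1 spanned 0.93, RIGI 0.90, DTX3L 0.83, EIF2AK2 0.81 and IRF1 0.77. At the other end, HERC6 spanned 0.14 and IRF9 0.18.

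The first question was whether IL-1β altered these genes. At 2 h limma called 1 of 35 members, PARP14, higher with IL-1β and 0 lower, against 4.52% of all probe sets called in this comparison and 1.56% called higher. The median log2 fold change of the members was 0.04, equal to the 0.04 of all probe sets, with 23 members positive and 12 negative. For 32 of the 35 members the 95% interval of the difference lay wholly within a 2-fold change in either direction, a share of 91.4% against 84.7% of all probe sets. The 3 others were PARP14, SAMD9 and MX1. These intervals are per gene and not adjusted for the number of genes. The 32 include the 18 members below every array median in all 10 groups, where a narrow interval may reflect background signal. For these 18 the interval does not show that the RNA stayed within a 2-fold change. The same limit holds for RSAD2, whose control and IL-1β means at 2 h (4.09 and 4.20) also lay below every array median.

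At 48 h limma called 0 of 35 members, with 3 at an unadjusted p under 0.05 (PARP14 higher, SAMD9 and MX1 lower), against 1.26% of all probe sets called. That count of 0 depended on the fit. It became 2 (SAMD9 and PARP14) with the replicate number as a block, fixed or random, and with array weights. The median was 0.07, beside 0.04 over all probe sets, and again 32 intervals lay within a 2-fold change. The same 3 genes were the exceptions at 48 h. The limit given for the 18 low members holds here too, and for RSAD2, with control and IL-1β means of 4.21 and 4.27. The IL-1β effect at 48 h minus that at 2 h was called for 0 members, with 0 at an unadjusted p under 0.05, against 0.00327% of all probe sets called.

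**Figure D2:**
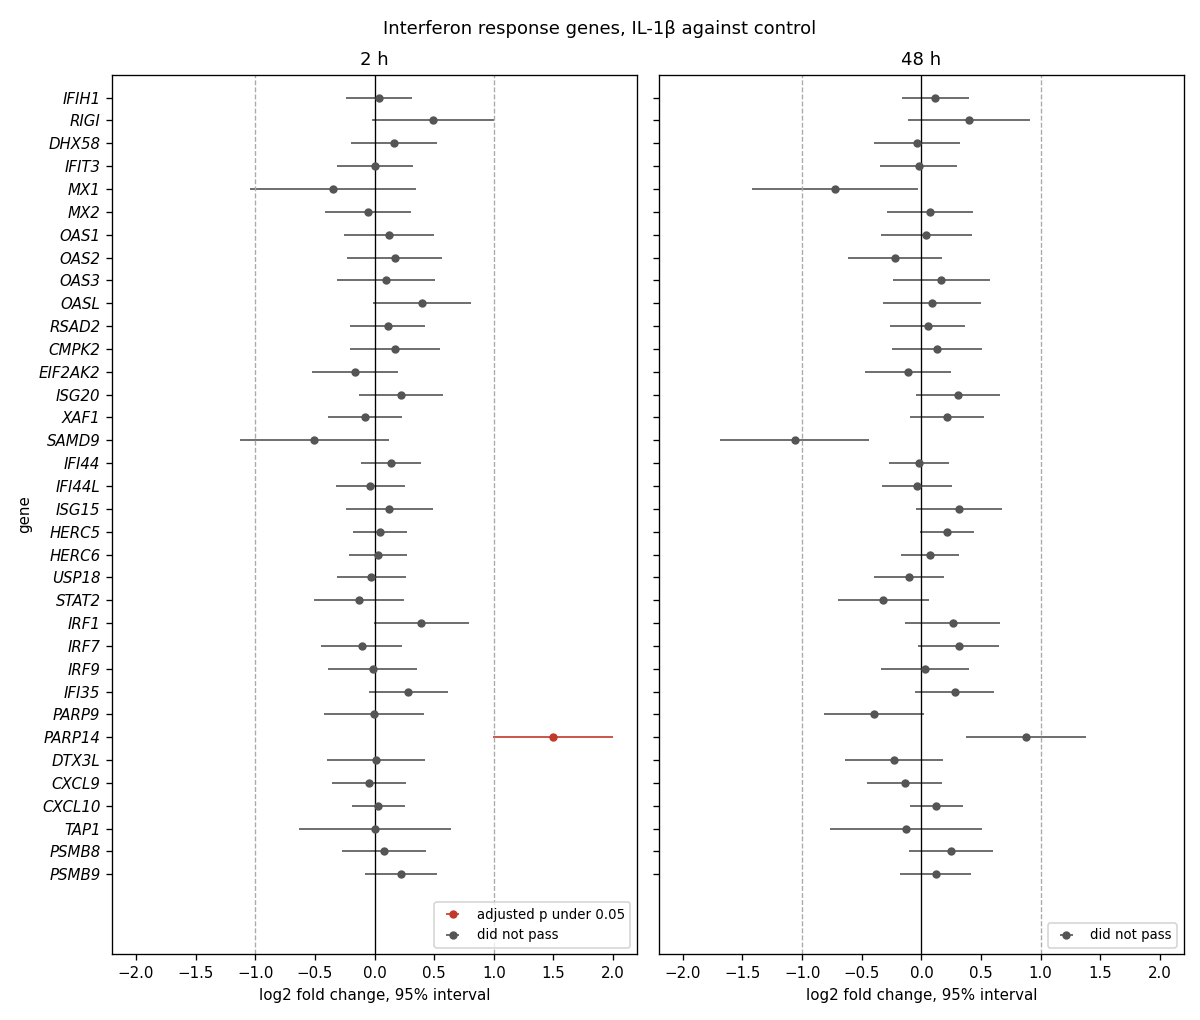
Log2 fold change of each member for IL-1β against control at 2 h (left) and 48 h (right), with its 95% interval from limma (4 arrays a group) and dashed lines at a 2-fold change. PARP14 at 2 h is the 1 member past the threshold (1.50), and SAMD9 lies lowest at both times (−0.50 and −1.06).

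Among the transcription factors and their partners, PARP14 carried the IL-1β difference. PARP14 is an ADP-ribosyltransferase that is known to modulate STAT signalling. At 2 h the 4 control arrays read 4.74, 4.76, 5.13 and 4.91 and the 4 IL-1β arrays 6.36, 6.19, 6.98 and 5.99. Every IL-1β array was thus above every control array, as held for 2 of the 35 members and for 11% of all probe sets. The means were 4.88 ± 0.18 (SD, n = 4) and 6.38 ± 0.43 (SD, n = 4), a log2 fold change of 1.50 (SE 0.25, limma adjusted p = 8.32e-05), or 2.82-fold.

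At 48 h PARP14 read 5.57, 5.05, 5.60 and 5.55 in control and 6.44, 6.49, 6.57 and 5.79 with IL-1β. The groups again did not overlap, as held for 4 of the 35 members (ISG20, SAMD9, HERC5 and PARP14) and 7.29% of all probe sets. The difference of 0.88 (SE 0.25, 95% interval 0.38 to 1.38) did not pass (limma adjusted p = 0.0712). It passed under 4 of 8 other settings. They were both fits with the replicate number as a block, array weights (limma adjusted p = 0.00987) and the upper 60% of probe sets by mean (0.0468). The difference also passed without IL-1β replicate 4 (0.0324). In the other direction, the limma adjusted p was 0.287 without control replicate 2 and reached 0.152 among the other settings. The 48 h effect was smaller than the 2 h effect by a value that did not pass (difference −0.62, 95% interval −1.33 to 0.09, limma adjusted p = 0.955).

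PARP9 and its partner DTX3L, an E3 ubiquitin ligase, did not pass at either time. At 2 h the 95% interval of the IL-1β difference was −0.42 to 0.42 for PARP9 and −0.40 to 0.42 for DTX3L, and at 48 h the differences were −0.40 and −0.23. DTX3L read 4.51, 4.37, 4.70 and 4.20 in control and 4.69, 4.28, 4.61 and 4.24 with IL-1β at 2 h, which overlapped throughout.

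IRF1, a transcription factor of the interferon gamma response, was among the 4 members with the largest statistics at 2 h. The control arrays read 3.40, 3.63, 3.42 and 3.44 and the IL-1β arrays 4.08, 3.72, 3.47 and 4.21, so 3 IL-1β arrays were above every control array and 1 was not. The difference of 0.39 (SE 0.20) did not pass (limma adjusted p = 0.365), and all 10 group means lay below every array median. STAT2 and IRF9, which take part in that promoter-binding complex, differed by −0.13 and −0.02 at 2 h and by −0.32 and 0.03 at 48 h. IRF7, the factor that amplifies interferon production, differed by −0.11 and 0.31, and IFI35 by 0.28 at both times. None of these values passed.

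Of the RNA sensors, only RIGI had a mean that was not below every array median in any group. RIGI detects viral RNA with a free end in the cytoplasm. At 2 h it read 5.05, 5.11, 5.57 and 5.14 in control and 6.12, 5.75, 5.78 and 5.18 with IL-1β. In all, 3 of the 4 IL-1β arrays lay above the highest control array and replicate 4 lay among the controls. The difference of 0.49 (SE 0.25, 95% interval −0.02 to 1.00) did not pass (limma adjusted p = 0.394). IFIH1 (MDA5), which senses long double-stranded RNA, and DHX58 (LGP2), a regulator of both sensors, differed by 0.04 and 0.17 and lay below every array median in all groups.

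Among the antiviral effectors, SAMD9 had the lowest difference at both times. SAMD9, known to restrict poxviruses, read 5.45, 5.43, 5.71 and 5.32 in control and 5.21, 5.18, 5.02 and 4.47 with IL-1β at 2 h. The groups did not overlap, but the difference of −0.50 (SE 0.31) did not pass (limma adjusted p = 0.513). At 48 h the control arrays read 5.60, 5.49, 5.89 and 6.58 and the IL-1β arrays 5.44, 4.92, 4.68 and 4.26. All IL-1β arrays were again below all control arrays, by −1.06 (SE 0.31, 95% interval −1.68 to −0.44), which did not pass (limma adjusted p = 0.0868). Without control replicate 4, which was the highest, the difference was −0.83 (limma adjusted p = 0.389). The SAMD9 difference passed without IL-1β replicate 1 (limma adjusted p = 0.0455) and under 3 of 8 other settings. They were both fits with the replicate number as a block and array weights (limma adjusted p = 0.014).

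MX1, a dynamin-like GTPase that blocks virus replication, varied most within groups. It read 4.37, 4.47, 3.87 and 5.60 in control at 48 h and 3.98, 3.73, 3.88 and 3.82 with IL-1β. Replicate 4 of the control stood more than 1 unit above the others, and replicate 3 lay among the IL-1β arrays. The difference of −0.73 (SE 0.34) did not pass (limma adjusted p = 0.476) and was −0.39 without control replicate 4. MX1 had a mean below every array median in 8 of the 10 groups, IL-1β at 2 h and 48 h among them. At such levels a fold change of MX1 has no exact size. Its relative MX2 differed by −0.05 at 2 h and 0.07 at 48 h.

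OASL, a relative of the 2'-5' oligoadenylate synthetases, read 3.88, 4.03, 3.98 and 3.56 in control and 3.82, 4.38, 4.02 and 4.81 with IL-1β at 2 h. The groups overlapped, and the difference of 0.39 (SE 0.20) did not pass (limma adjusted p = 0.389). All 10 group means of OASL lay below every array median. OAS1, OAS2 and OAS3, the enzymes that make the activator of RNase L, differed by 0.12, 0.17 and 0.10 at 2 h. RSAD2 (viperin) and the neighbouring CMPK2 differed by 0.11 and 0.17, IFIT3 by 0.01, and the RNA-activated kinase EIF2AK2 (PKR) by −0.16. Over the 15 effectors the values ran from −0.50 to 0.39 at 2 h and from −1.06 to 0.31 at 48 h, and limma called 0 of them (0 at an unadjusted p under 0.05 at 2 h, and SAMD9 and MX1 at 48 h).

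ISG15 is a ubiquitin-like protein that is joined to other proteins by ligases such as HERC5 and removed by USP18. None of the 4 genes of this group passed at 2 h or 48 h (0 at an unadjusted p under 0.05 in limma). HERC5 read 2.04, 2.17, 2.23 and 2.33 in control and 2.36, 2.34, 2.38 and 2.54 with IL-1β at 48 h. These did not overlap, but the difference was 0.21 (SE 0.11, limma adjusted p = 0.541) at a signal below every array median. ISG15 differed by 0.12 at 2 h and 0.31 at 48 h.

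The chemokines and antigen processing genes did not pass for IL-1β either (0 of 5 at either time in limma, and 0 at an unadjusted p under 0.05). CXCL10 had a mean of 1.99 ± 0.11 (SD, n = 4) in control and 2.03 ± 0.15 (SD, n = 4) with IL-1β at 2 h, and CXCL9 2.23 ± 0.13 (SD, n = 4) and 2.18 ± 0.18 (SD, n = 4). Both chemokines, which draw T cells, lay below every array median in all 10 groups. TAP1, a peptide transporter, and the immunoproteasome subunits PSMB8 and PSMB9 differed by 0.01, 0.08 and 0.22.

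**Figure D3:**
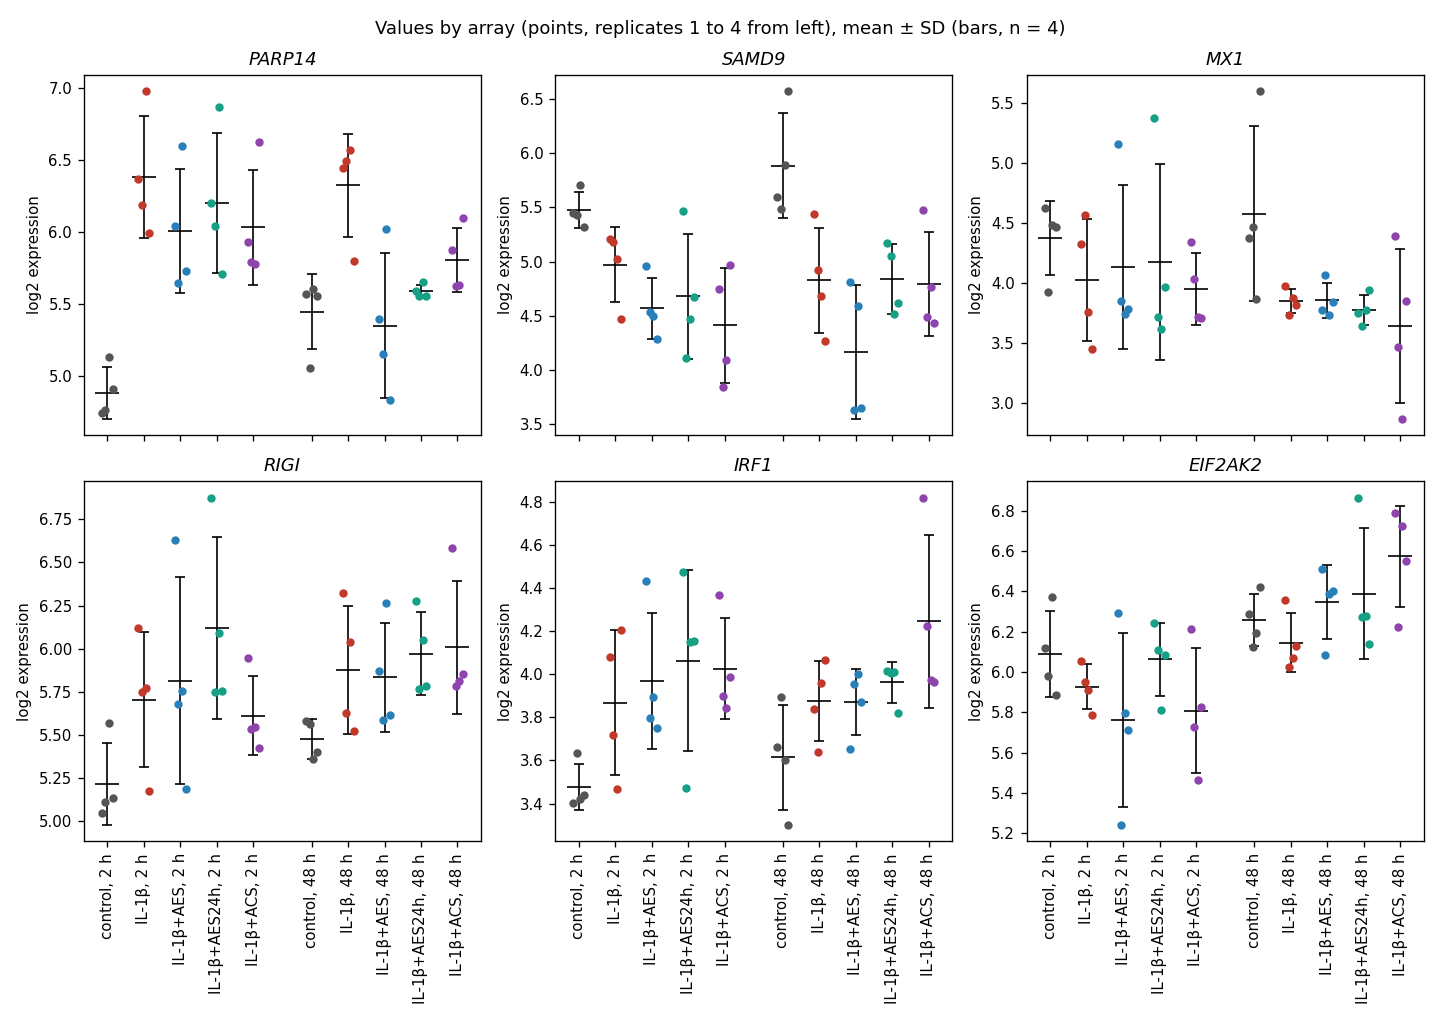
Log2 expression of PARP14, SAMD9, MX1, RIGI, IRF1 and EIF2AK2 in every array (points, replicates 1 to 4 from left to right) of the 10 groups, with mean and SD (bars, n = 4). PARP14 is lowest in control at 2 h (4.74 to 5.13), SAMD9 is highest in control at both times, and MX1 has single high arrays in AES (5.15) and AES24h (5.37) at 2 h and in control at 48 h (5.60).

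The next comparison set the sera, each given with IL-1β, against IL-1β alone. At 2 h limma called 0 of 35 members for AES, AES24h, ACS or the mean of the 3 sera, with 1, 0, 0 and 1 at an unadjusted p under 0.05. Over all probe sets 0.0164%, 0.0229%, 0.0262% and 0.0458% were called. For the mean of the 3 sera the members' median was 0.01 beside 0.02 over all probe sets, and for 35 of 35 members the 95% interval lay within a 2-fold change, against 94.5% of all probe sets. For the 18 members always below every array median, such an interval does not show that the RNA stayed within a 2-fold change. The same limit holds for MX1, whose IL-1β and serum means at 2 h also lay below every array median. The members with the largest statistics were DTX3L, RSAD2, SAMD9 and XAF1.

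DTX3L had a lowest, median and highest value of 3.42, 4.15 and 4.52 over the 12 serum arrays, and 8 of the 12 lay below every IL-1β array. The difference was −0.39 (SE 0.17, limma adjusted p = 0.658). RSAD2 ran from 4.02 over a median of 4.46 to 4.64 with serum and read 4.22, 3.95, 4.24 and 4.40 with IL-1β. Its difference of 0.22 (SE 0.13) did not pass (limma adjusted p = 0.779). SAMD9 ran from 3.83 over 4.51 to 5.47 with serum, a difference of −0.42 (SE 0.25, limma adjusted p = 0.784). XAF1, a promoter of cell death, ran from 3.76 over 3.93 to 4.23 against 3.51, 4.02, 3.70 and 3.90 (difference 0.19, SE 0.12, limma adjusted p = 0.796). All 4 overlapped with IL-1β alone over the 12 arrays. Separate groups were seen for 0 of 35 members, against 0.236% of all probe sets. The AES arrays of DTX3L on their own, at 3.63, 4.11, 4.15 and 3.42, did not overlap with IL-1β alone. Such separation held for 1 of 35 members and 3.8% of all probe sets.

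At 48 h PARP14 again had the largest statistic of the members. Limma called 0 of 35 members for AES, AES24h, ACS or their mean, with 2, 1, 2 and 1 at an unadjusted p under 0.05, against 0.442%, 0.226%, 0.262% and 0.733% of all probe sets called. PARP14 read 5.39, 5.15, 6.02 and 4.83 with AES, 5.59, 5.56, 5.65 and 5.56 with AES24h and 5.87, 5.62, 5.63 and 6.09 with ACS. Against the IL-1β values above, 9 of the 12 serum arrays lay below every IL-1β array, and the AES24h arrays did not overlap with IL-1β, as held for 1 of 35 members and 4.65% of all probe sets.

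The PARP14 difference from IL-1β at 48 h was −0.97 (SE 0.25, 95% interval −1.48 to −0.47, limma adjusted p = 0.0633) for AES. For AES24h it was −0.74 (95% interval −1.24 to −0.24, limma adjusted p = 0.358) and for ACS −0.52 (95% interval −1.02 to −0.02, limma adjusted p = 0.627). Over the 3 sera it was −0.74 (SE 0.20, limma adjusted p = 0.0779), against −0.30 (SE 0.20, limma adjusted p = 0.809) at 2 h. The difference between these serum effects was −0.44 (95% interval −1.02 to 0.14, limma adjusted p = 0.813). For that difference limma called 0 of 35 members, with 2 at an unadjusted p under 0.05, against 0.0491% of all probe sets called. The 48 h value of PARP14 over the 3 sera passed under 4 of 9 other settings. They were both fits with the replicate number as a block, array weights (limma adjusted p = 0.0295) and the upper 60% of probe sets by mean (0.0499). That value also passed without IL-1β replicate 4 (0.044) and without AES replicate 3 (0.0285). In the other direction, its limma adjusted p was 0.317 without IL-1β replicate 2 and reached 0.191 among the other settings. Its size under those settings ran from −0.79 to −0.62.

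The other members named at 48 h were EIF2AK2, XAF1 and HERC5. EIF2AK2 read 6.36, 6.03, 6.07 and 6.13 with IL-1β and ran from 6.08 over 6.39 to 6.87 with serum, and 7 of the 12 serum arrays lay above every IL-1β array. The difference of 0.29 (SE 0.14) did not pass (limma adjusted p = 0.609). XAF1 differed by −0.21 (SE 0.12, limma adjusted p = 0.732) and HERC5 by −0.14 (SE 0.09, limma adjusted p = 0.781), with 8 of 12 serum arrays below every IL-1β array in each. Both lay below every array median. SAMD9 differed from IL-1β by −0.66 with AES (limma adjusted p = 0.437), 0.01 with AES24h and −0.04 with ACS.

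**Figure D4:**
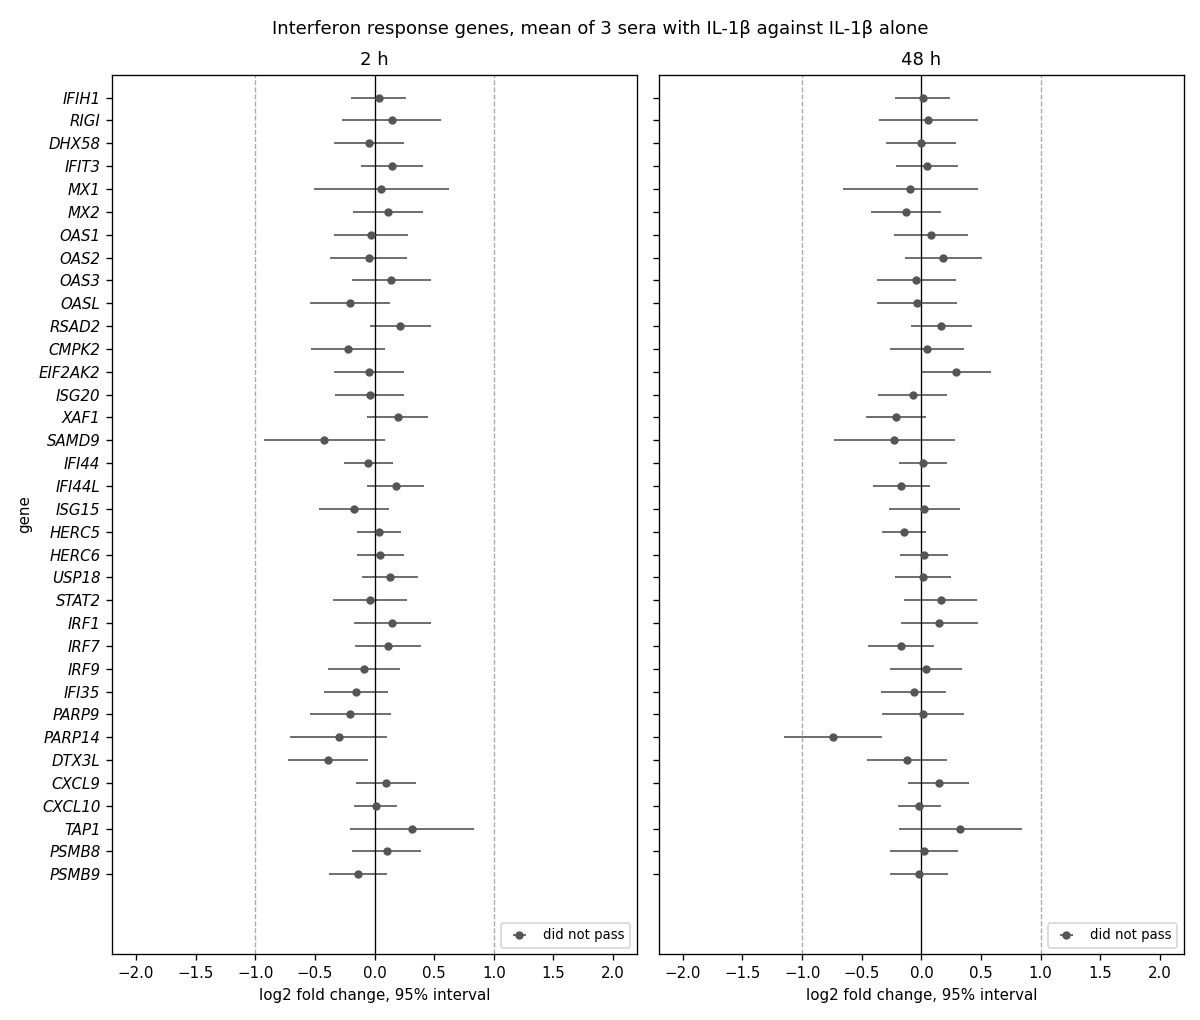
Log2 fold change of each member for the mean of the 3 serum treatments (12 arrays) against IL-1β alone (4 arrays) at 2 h (left) and 48 h (right), with its 95% interval from limma and dashed lines at a 2-fold change. No member passed, and PARP14 at 48 h (−0.74) lies farthest from 0.

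The pellets with IL-1β and serum were also set against control, which shares the control arrays with the IL-1β comparison. At 2 h limma called 4 of 35 members, 3 higher and 1 lower, against 10.3% of all probe sets, 3.87% higher and 6.44% lower. PARP14 was the 1 member of 35 whose arrays did not overlap, as held for 5.45% of all probe sets. PARP14 ran from 5.65 over 5.98 to 6.86 with serum, above every control array in 12 of 12, a difference of 1.19 (SE 0.20, limma adjusted p = 5.5e-05). RIGI ran from 5.19 over 5.75 to 6.87 with serum, above every control array in 8 of 12, and rose by 0.63 (SE 0.21, limma adjusted p = 0.0423). Leaving out 7 different single arrays each ended that call (adjusted p up to 0.157, for control replicate 1), and so did analyses with quantile normalisation applied again (0.0512), with arrays centred on their medians (0.118) and with the spread estimated in the compared groups alone (0.108).

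IRF1 ran from 3.47 over 3.94 to 4.47 with serum at 2 h, above every control array in 11 of 12, and rose by 0.54 (SE 0.16, limma adjusted p = 0.0218). Its call was lost without control replicate 1, 3 or 4 (adjusted p = 0.0836, 0.0763 and 0.0642) and under the same 3 settings as that of RIGI (0.0803, 0.0555 and 0.0585). All 10 group means of IRF1 lay below every array median, where a fold change has no exact size. SAMD9 lay below every control array in 11 of 12 serum arrays and fell by 0.92 (SE 0.25, limma adjusted p = 0.0116), with an adjusted p of 0.0642 without control replicate 3. The leukocyte list averaged 3.37 to 3.61 per array in the 3 serum groups at 2 h, against the control range of 3.31 to 3.35 given above, and limma called 1 of its 18 genes, the macrophage marker CD68, higher by 0.53 (adjusted p = 0.0102). The chondrocyte markers were called lower in 5 of 10 at 2 h and 9 of 10 at 48 h. Of the 5 fibroblast markers THY1 fell by 0.95 (limma adjusted p = 0.0152) and COL3A1 rose by 0.30 (adjusted p = 0.0168) at 2 h, and COL3A1 rose by 0.30 (adjusted p = 0.0257) at 48 h. The part of these lists in these results was not tested.

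At 48 h limma called 1 of 35 members, SAMD9, lower than control and 0 higher, against 6.61% of all probe sets called and 4.05% called lower. SAMD9 ran from 3.62 over 4.60 to 5.48 with serum, below every control array in 12 of 12, a difference of −1.29 (SE 0.25, limma adjusted p = 0.000497) or 2.44-fold lower. The AES arrays read 4.81, 3.62, 4.59 and 3.65, the AES24h arrays 5.17, 5.05, 4.51 and 4.62, and the ACS arrays 5.48, 4.49, 4.77 and 4.43. The AES mean was below every array median. AES replicates 2 and 4 were the 2 lowest, and these arrays also had the lowest mean correlation with all other arrays. Without both the difference was −1.11 and still passed.

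RIGI at 48 h lay above every control array in 12 of 12 serum arrays, as held for SAMD9 in the other direction and for 3.49% of all probe sets. Its difference of 0.46 (SE 0.21) did not pass (limma adjusted p = 0.226). MX1 ran from 2.87 over 3.78 to 4.39 with serum, below every control array in 9 of 12, with a difference of −0.82 (SE 0.28, limma adjusted p = 0.0758). The serum means of MX1 lay below every array median, where a fold change has no exact size. PARP14 differed from control by 0.14 (95% interval −0.27 to 0.54, limma adjusted p = 0.798) at 48 h.

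Between 2 h and 48 h, limma called EIF2AK2 in the ACS groups and no other member in any of the 5 treatments. EIF2AK2 read 6.21, 5.73, 5.47 and 5.83 at 2 h and 6.79, 6.23, 6.73 and 6.55 at 48 h with ACS. The 48 h arrays were all above the 2 h arrays, as held for 1 of 35 members and 6.43% of all probe sets. EIF2AK2 rose by 0.77 (SE 0.18, limma adjusted p = 0.0236) in a comparison with 0.916% of all probe sets called. Leaving out 6 different single arrays each ended the call (adjusted p up to 0.111, for ACS replicate 3 at 2 h), as did the fit with the spread estimated in the compared groups alone (adjusted p = 0.151). In the other treatments EIF2AK2 differed by 0.17 in control, 0.22 with IL-1β, 0.59 with AES (limma adjusted p = 0.0805) and 0.33 with AES24h, none of which passed. At the adjusted threshold limma called 0 members in control, IL-1β, AES and AES24h, against 0.00327%, 0.00654%, 1.65% and 1.12% of all probe sets. Members at an unadjusted p under 0.05 numbered 3, 1, 3 and 2. That measure is looser, and its share over all probe sets is not given here, so these counts have no background beside them.

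The sera did not differ from each other in any member at the threshold. The 6 comparisons were AES24h against AES, ACS against AES and ACS against AES24h at each time, and limma called 0 of 35 members in each. Of all probe sets 0.00327%, 0% and 0% were called at 2 h and 0% in each at 48 h. Members at an unadjusted p under 0.05 numbered 2, 0 and 0 at 2 h and 5, 3 and 2 at 48 h. These counts use a looser measure than the shares called, and their share over all probe sets is not given here. For PARP14 at 48 h the difference of ACS from AES was 0.46 (95% interval −0.04 to 0.96), and that of AES24h from AES was 0.24 (95% interval −0.26 to 0.74). For SAMD9 at 48 h, AES24h exceeded AES by 0.67 (95% interval 0.05 to 1.29, limma adjusted p = 0.393).

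Genes of the same pathway outside the list were counted beside the members, and their counts for IL-1β stand against the 4.52% of all probe sets called at 2 h (1.56% higher) and 1.26% at 48 h given above. Of 15 measured genes for interferon ligands, receptors and signalling, limma called 3 higher and 0 lower with IL-1β at 2 h. They were the receptor chains IFNAR1 at 0.83 (SE 0.22, limma adjusted p = 0.017) and IFNGR2 at 0.65 (limma adjusted p = 0.0185) and the kinase JAK1 at 0.42 (limma adjusted p = 0.0366). Leaving out control replicate 1 ended these calls (adjusted p = 0.115, 0.0691 and 0.172), and 3, 4 and 5 single arrays did so in all. JAK1 also lost its call when arrays were centred on their medians and with the spread estimated in the compared groups alone. The list had a median of 0.17 at 2 h. At 48 h limma called 0 of the 15 (6 at an unadjusted p under 0.05), with SOCS3, a feedback inhibitor of JAK kinases, at 0.80 (limma adjusted p = 0.154) and STAT3 at −0.31 (limma adjusted p = 0.326).

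Of 14 genes for the induction of interferon limma called 0 with IL-1β at either time (3 and 2 at an unadjusted p under 0.05). The kinase TBK1 stood at 0.62 (limma adjusted p = 0.094) and the adaptor TICAM1 at 0.41 (limma adjusted p = 0.122) at 2 h. At 48 h TICAM1 stood at 0.35 (limma adjusted p = 0.388) and the kinase IKBKE at 0.29 (limma adjusted p = 0.49). Of 24 further interferon-stimulated genes limma called ZNFX1 at 2 h, at 0.67 (limma adjusted p = 0.0296), with PML next at 0.33 (limma adjusted p = 0.211). ZNFX1 lost its call when 1 of 4 arrays was dropped (adjusted p up to 0.131, for control replicate 1) and when arrays were centred on their medians. At 48 h limma called 0 of the 24 (0 at an unadjusted p under 0.05), with NMI at 0.30 and UBE2L6 at 0.21.

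Of 13 antigen presentation genes limma called 1 higher and 1 lower with IL-1β at 2 h. The transporter TAP2 rose by 0.86 (limma adjusted p = 0.0397) and the proteasome activator PSME1 fell by 0.60 (limma adjusted p = 0.00707). The control mean of TAP2 was 3.66, below every array median, where a fold change has no exact size. TAP2 lost its call when 1 of 7 arrays was dropped (adjusted p up to 0.179, for IL-1β replicate 1), when arrays were centred on their medians and with quantile normalisation applied again. PSME1 lost its call with the spread estimated in the compared groups alone (adjusted p = 0.0615). At 48 h limma called 0 of the 13 (3 at an unadjusted p under 0.05), with CD74 at 0.40 (limma adjusted p = 0.415) and B2M at 0.45 (limma adjusted p = 0.459). The CD74 means in control (3.69) and with IL-1β (4.09) lay below every array median.

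Serum with IL-1β against IL-1β alone moved 1 gene in each of 2 of these lists at 48 h, IRF2 of 14 and PML of 24, against 0.733% of all probe sets called over the 3 sera, 0.226% with AES24h and 0.442% with AES. IRF2, a factor that can oppose IRF1, rose by 0.79 (SE 0.17, limma adjusted p = 0.0112) over the 3 sera and by 0.90 (limma adjusted p = 0.0443) with AES24h. PML, the organiser of nuclear bodies, rose by 0.51 (SE 0.11, limma adjusted p = 0.0137) over the 3 sera and by 0.57 (limma adjusted p = 0.0474) with AES. Without IL-1β replicate 4 the adjusted p of IRF2 over the 3 sera was 0.106, and without IL-1β replicate 2 that of PML was 0.113. Both calls over the 3 sera were lost with the spread estimated in the compared groups alone (adjusted p = 0.0524 and 0.0785), and the single-serum calls were each lost without any 1 of 7 arrays. In the same comparison of the 3 sera with IL-1β at 48 h, limma called 2 of the 10 chondrocyte markers lower, ACAN by −1.48 (adjusted p = 0.00669) and COL11A1 by −0.98 (adjusted p = 0.00294), and 0 of the leukocyte, fibroblast and endothelial markers (1, 0 and 0 at an unadjusted p under 0.05). With AES alone it called 3 of 10 lower, ACAN, HAPLN1 and COL11A1, and with AES24h 1, COL11A1. The part of these markers in the IRF2 and PML results was not tested.

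Against control, serum with IL-1β also had calls in these lists, beside 10.3% of all probe sets called at 2 h and 6.61% at 48 h. At 2 h IFNAR2 (0.51), SOCS3 (1.00), TBK1 (0.54), NMI (0.67), ZNFX1 (0.52), the chemokine CCL5 (1.78) and TAP2 (0.68) were higher and PSME1 (−0.59) was lower. At 48 h SOCS3 (1.34), IRF2 (0.74), PML (0.47), the ISG15-activating enzyme UBA7 (0.50), TAP2 (0.68) and the peptidase ERAP1 (1.00) were higher. These all passed in limma, with adjusted p from 2.49e-05 to 0.0406. Some control means lay below every array median, where a fold change has no exact size. They were CCL5 (3.62) and TAP2 (3.66) at 2 h, and UBA7 (3.18), TAP2 (3.88) and ERAP1 (3.72) at 48 h. The serum mean of UBA7 (3.69) lay there too. The calls of SOCS3, CCL5 and PSME1 at 2 h and of SOCS3, IRF2 and PML at 48 h were kept without any 1 array, and each of the others was lost without at least 1. Between 2 h and 48 h, limma called IRF2 (0.76) and PML (0.59) higher and IFNGR1 (−0.50) and PTPN2 (−0.62), a phosphatase that acts on STAT proteins, lower with AES. IRF2 (1.14) was higher with AES24h and PML (0.68) with ACS. Over all probe sets 1.65%, 1.12% and 0.916% were called in these 3 comparisons, and of the 10 chondrocyte markers limma called 2, 2 and 0, all lower. The 4 calls with AES were lost without AES replicates 2 and 4 at 48 h, while the sizes moved differently. IRF2 was then 0.80 (adjusted p = 0.193) and PML 0.65 (adjusted p = 0.0817), whereas IFNGR1 came to −0.31 (adjusted p = 0.452) and PTPN2 to −0.34 (adjusted p = 0.601). The calls of IRF2 with AES24h and of PML with ACS were kept without any 1 array. Both were lost with the spread estimated in the compared groups alone (limma adjusted p = 0.0625 and 0.125).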

How the data were processed

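The authors deposited log2 expression values for 40 Affymetrix Equine Gene 1.0 ST arrays. Affymetrix Expression Console, RMA and limma are named in the submitters' processing notes, with no version, role or order. Total RNA came from homogenised pellets, per the labels' protocols. The members and all gene lists were chosen with earlier results of these data known. Probe sets were named from the platform annotation: 16789 had 1 symbol, 343 had several and 13427 were unlisted. Values ran from 0.87 to 13.73, and 0 of 780 array pairs were identical. The number of arrays limits the precision, and no genome or sequence was used here.

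Limma 3.58.1 in R 4.3.3 was fitted to all 30559 probe sets over the 10 groups (30 residual degrees of freedom, eBayes with an intensity trend), for 25 comparisons. P-values were adjusted by Benjamini-Hochberg across the whole table, the threshold was 0.05, and the procedure was tested on simulated data. Shares of all probe sets called use the adjusted p, so counts of members at an unadjusted p are not to be set against them. Genes named are members called in a comparison and the 4 with the largest moderated statistic for IL-1β against control and for the sera against IL-1β, at each time. From the pathway lists they are the genes called and the 2 with the largest statistic for IL-1β against control. Other genes and values are named as examples of their role, and some were chosen after their values were seen. Alternatives were a replicate block (fixed or random), a filter on low means, repeated quantile normalisation, median centring, no trend, array weights, the spread of the compared groups alone and each array left out. Leaving out AES replicates 2 and 4 at 48 h was added after seeing the data.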

Additional observations from a re-analysis of the deposited data

Results flagged for a closer look

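In each group of 4 arrays, an array was singled out where its distance from the nearest other array took up most of the group's range (Dixon's 95% critical value). This was looked at for 11 members in 10 groups, 110 cases in all, and 12 met it. Chance alone does so in about 1 in 20 groups, and arrays are shared between members. PARP14 had a low array in control at 48 h (replicate 2 at 5.05, others 5.55 to 5.60) and in IL-1β at 48 h (replicate 4 at 5.79, others 6.44 to 6.57). RIGI had a high array in control at 2 h (replicate 3 at 5.57) and in ACS at 48 h (replicate 1 at 6.58). IRF1 had a high array in control at 2 h (replicate 2 at 3.63) and a low array in AES24h at 48 h (replicate 4 at 3.82). DTX3L had a low array in ACS at 2 h (replicate 4 at 3.75) and a high array in ACS at 48 h (replicate 3 at 4.91). HERC5 had low arrays in IL-1β at 2 h (replicate 1 at 2.12) and in AES at 48 h (replicate 1 at 2.04). MX1 had a high array in AES at 2 h (replicate 1 at 5.15), and OASL in ACS at 48 h (replicate 2 at 4.29).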

How the results depend on the processing

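Of 471 recounts of called members over 25 comparisons, 430 stayed within 1.5 times the reported count and 41 did not. For IL-1β against control at 48 h the count of 0 became 2 (SAMD9 and PARP14) with the replicate block, fixed (adjusted p = 0.0225 and 0.018) or random (0.0391 and 0.0326), and with array weights, and 1 with the upper 60% of probe sets, and ran from 0 to 1 without single arrays. PARP14 took the count from 0 to 1 for AES against IL-1β at 48 h with either replicate block, the upper 60% and repeated quantile normalisation, and for the 3 sera with either block, the upper 60% and array weights. Each ran from 0 to 1 without single arrays. For the sera against control at 2 h the count of 4 became 2 with repeated quantile normalisation, median centring and the spread of the compared groups alone, and ran from 2 to 4 without single arrays. At 48 h the count of 1 became 3 with the fixed replicate block and 2 with the random block, the upper 60% and array weights, and ran from 1 to 2 without single arrays. EIF2AK2 took the 48 h against 2 h count with AES from 0 to 1 with either replicate block and repeated quantile normalisation (0 to 1 without single arrays), and with ACS from 1 to 0 with the spread of the compared groups alone (0 to 1 without single arrays). UBE2L6 for IL-1β at 48 h changed sign, from −0.0391 without control replicate 3 to 0.30 without control replicate 2. The cause of these changes was not tested. The replicate block raised the number of probe sets called for IL-1β at 48 h from 386 to 696, and array weights raised it to 757. Same-numbered arrays of control and IL-1β correlated in their deviations at 0.0366 to 0.223 at 2 h and −0.000365 to 0.152 at 48 h, near 0 for some pairs, so the numbers were not taken as pairs. Of 40 arrays 36 correlated best with arrays of their own number, far more than an even share among the 4 numbers. Same-numbered arrays thus appear to share a factor, which the labels do not name. The main counts come from the fit without a block, and for IL-1β at 48 h the count of 0 depended on that choice. Each member had 1 probe set, so the choice of another could not be run.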

Other observations

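Single arrays held much of the variation of some members, as seen after their values were known. Control replicate 4 at 48 h was the highest of its group for 16 of 35 members, against 22.3% of all probe sets, with MX1 at 5.60 and SAMD9 at 6.58. IL-1β replicate 4 at 48 h was the highest for 21 of 35, against 30.2%. Replicate 1 was the highest for MX1 and RIGI with AES at 2 h (5.15 and 6.63) and with AES24h at 2 h (5.37 and 6.87).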
